A study of Mus musculus with 12 samples.

Results

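The data describe 6 genes of ATDC5 cells whose RNA fell strongly, in medium, with cytokines or in both, after knockdown of Ddx5: the proliferins Prl2c2 and Prl2c3, Pate14, Clip3, Foxs1 and Tmem98. The 6 genes were taken by name from a table of 46731 genes, and the names had been picked from among the largest knockdown falls of either medium, so the falls are given here as a description and were not tested. All 6 genes passed the filter on low values (FPKM 1 or more in 3 or more libraries), which 12368 genes of the table passed. FPKM is the number of sequenced fragments per kilobase of gene length, scaled to the size of the library.

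ATDC5 is a mouse teratocarcinoma cell line used as a model of early cartilage cells. It was transduced with lentivirus that carries a short hairpin RNA under a U6 promoter and a puromycin resistance gene, either against Ddx5 (shRNA-Ddx5) or a negative control (shRNA-NC), and stable lines were kept. Each line was collected in medium alone or after 6 h with IL-1β and TNF-α together ("cytokines"), which gave 4 groups of 3 libraries and 12 libraries in all. Both lines therefore carry a lentiviral insertion, a hairpin and the resistance gene, the knockdown rests on 1 hairpin sequence, and any change fixed in a line when it was made cannot be told apart from the knockdown. The labels call the shRNA-NC cells wildtype and do not say whether a line is a clone. Each library held 14119199 to 19276520 fragments on genes.

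Ddx5, a DEAD-box RNA helicase that acts in transcription and splicing, checks the labels. Its FPKM was 319 ± 22.3 (mean ± SD, n = 3 here and below) in shRNA-NC and 103 ± 13.9 in shRNA-Ddx5 cells in medium, and 310 ± 14.9 and 99.5 ± 5.27 with cytokines. The knockdown line thus held 32.3% of the control level in medium and 32.1% with cytokines, and no shRNA-Ddx5 library reached a shRNA-NC library. Of 14 chondrocyte markers, 4 passed the filter. Sox9, the master transcription factor of cartilage, was at 27.5 ± 0.327 FPKM in shRNA-NC cells in medium, and the cartilage collagen Col2a1 at 12.4 ± 3.05. Acan, the cartilage proteoglycan core, in contrast reached 0.0325 FPKM at most in any library, and Cnmd was listed at 0. Of the 14 markers, 10 stayed under 1 FPKM in every library. Libraries of a group correlated at 0.973 to 0.993 (Pearson's r on log2(FPKM + 1)), and shRNA-NC replicate 2 with cytokines was the lowest of its group for Prl2c2, Prl2c3 and Pate14.

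Proliferins are secreted hormones of the prolactin family. They are known best from trophoblast giant cells of the mouse placenta, where they promote vessel growth, and they were first found as genes that growth factors switch on in cultured fibroblasts. Pate14 is a small secreted protein of the Ly-6 fold, described first in the seminal vesicle. The other members act inside cells or in their membranes: Clip3 (CLIPR-59) is a CAP-Gly protein of the trans-Golgi network and plasma membrane that binds the kinase Akt, Foxs1 is a forkhead transcription factor known from perivascular cells and sensory neurons, and Tmem98 is a membrane protein of the endoplasmic reticulum that binds the transcription factor MYRF and blocks its self-cleavage. In RNA of whole cultures, fewer expressing cells and less RNA per cell cannot be told apart.

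The upstream sequences are shown first, as a description. The rule chose the 6 genes for their fall, so nothing about a shared promoter feature is read from their moving together. RefSeq promoter sequence (GRCm38.p6) matched 4 of the 6 genes, that is, Prl2c3, Pate14, Clip3 and Tmem98. The 250 bases before the start site are printed 5′ to 3′ on the gene's strand for Prl2c3 (chr13:12800080-12800329, minus strand), for its paralog Prl2c5 (chr13:13182466-13182715, plus strand) and for Pate14 (chr9:36638603-36638852, minus strand). Capitals mark matches to TGANTCA, a looser form of the letters bound by the Fos and Jun dimer AP-1, with any middle base allowed. The match was TGAATCA in Prl2c3 and TGAGTCA in Pate14, and a match is not called an AP-1 site here. Capitals also mark matches to TATANA, the core element that places the start of transcription.
Prl2c3: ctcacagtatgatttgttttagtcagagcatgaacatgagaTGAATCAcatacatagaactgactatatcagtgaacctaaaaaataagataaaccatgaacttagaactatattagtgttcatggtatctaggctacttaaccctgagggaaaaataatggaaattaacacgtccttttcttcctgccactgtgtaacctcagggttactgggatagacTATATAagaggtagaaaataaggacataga
Prl2c5: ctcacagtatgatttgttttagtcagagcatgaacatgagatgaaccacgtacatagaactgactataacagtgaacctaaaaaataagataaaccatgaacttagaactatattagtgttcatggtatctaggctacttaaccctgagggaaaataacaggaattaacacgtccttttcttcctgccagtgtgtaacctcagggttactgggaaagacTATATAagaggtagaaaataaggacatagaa
Pate14: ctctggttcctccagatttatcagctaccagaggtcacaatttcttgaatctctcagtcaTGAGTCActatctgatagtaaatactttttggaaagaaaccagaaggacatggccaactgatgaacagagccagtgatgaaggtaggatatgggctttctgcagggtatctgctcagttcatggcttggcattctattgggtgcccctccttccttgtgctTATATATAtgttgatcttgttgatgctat
The letters TGANTCA, searched on both strands, occurred once in Prl2c3, with the first base 209 before the start, once in Pate14, 190 before the start, and not in the windows of Prl2c5, Clip3 or Tmem98. Of 32851 promoters, 2217 (6.75%) hold a match in the same 250 bases. TATANA on the gene's strand began 30 bases before the start of Prl2c3, 31 before that of Prl2c5, and 29 and 27 before that of Pate14, where the matches overlap, against 16.4% of promoters with a match. The windows of Prl2c3 and Prl2c5 were 96.4% identical, with 241 identical positions, 8 mismatches and 1 gapped position. Clip3 (chr7:30291445-30291694, plus strand) and Tmem98 (chr11:80810116-80810365, plus strand) had promoters of another kind, with no TATANA, 11 and 20 CG dinucleotides and 57.2% and 74.8% G or C, against 1 CG and 35.2% in Prl2c3, 0 CG and 42.8% in Pate14, and medians of 6 CG and 52.4% over all promoters. A run of GGG repeated 4 times with 1 to 7 bases between, the pattern of a possible G-quadruplex, was found in Tmem98 alone of these windows, and in 16.6% of promoters. A match describes letters only and was not tested for binding in these cells.

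Prl2c2 (gene 18811, GRCm39 chr13:13170705-13179978, minus strand) had the widest swing between groups in absolute level. In medium its FPKM was 37.9, 35.3 and 28.5 in the shRNA-NC libraries and 9.92, 7.81 and 6.91 in the shRNA-Ddx5 libraries. With cytokines it was 634, 227 and 339 in shRNA-NC and 28, 29.5 and 33.4 in shRNA-Ddx5. Every knockdown library lay below every control library in each medium, and the cytokine-treated knockdown libraries overlapped the untreated control libraries. The knockdown mean was 24.2% of the control mean in medium and 7.58% with cytokines. The difference in log2(FPKM + 1) was -1.93 ± 0.29 (SE of the fit here and below) in medium and -3.55 ± 0.29 with cytokines, a gap between the knockdown effects of -1.63 ± 0.41. Without shRNA-NC replicate 1 with cytokines, the highest library, the latter effect was -3.16, and without replicate 2, the lowest, it was -3.89.

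Prl2c3 (gene 18812, GRCm39 chr13:12805705-12814982, minus strand) followed Prl2c2 at a far lower level. Its FPKM in medium was 1.41, 1.18 and 3.53 in shRNA-NC libraries (24 to 53 fragments) and 0.487, 0.222 and 0.833 in shRNA-Ddx5 libraries (4 to 15 fragments). With cytokines it was 30.3, 13.4 and 18.0 in shRNA-NC (251 to 505 fragments) and 1.76, 1.89 and 0.954 in shRNA-Ddx5 (15 to 30 fragments). The lines did not overlap in either medium, but the values of the treated knockdown cells again spanned those of 2 untreated control libraries. The knockdown mean was 25.2% of the control mean in medium and 7.45% with cytokines. On the log2(FPKM + 1) scale, which understates a change at so low a level, the effects were -0.95 ± 0.32 and -3.04 ± 0.32, with a gap of -2.09 ± 0.45. The effect in medium rested in part on shRNA-NC replicate 3, and was -0.62 without it.

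The pair cannot be fully separated. Their transcripts (842 bases for Prl2c2 and 857 for Prl2c3) were 99.5% identical, with 838 identical positions and 4 mismatches, and of the 150-base windows of each, 353 of 693 in Prl2c2 and 353 of 708 in Prl2c3 occurred letter for letter in another gene of the annotation. How the authors counted fragments that map to several genes is not given in the sources used here. Prl2c3 stood at 3.35% to 12.4% of the Prl2c2 FPKM in shRNA-NC libraries, 2.84% to 12.1% in shRNA-Ddx5, 4.77% to 5.91% in treated shRNA-NC and 2.85% to 6.4% in treated shRNA-Ddx5 libraries. These ranges overlapped between all groups, so the share of Prl2c3 did not separate the groups at this depth. Prl2c5, another proliferin, shares 96.0% of its transcript with Prl2c2 and no 150-base window with any gene. Of its 50-base windows, however, 38.5% occur in other genes, among them Prl2c2 and Prl2c3. It had 0 fragments in all 6 libraries in medium, 20, 12 and 23 in treated shRNA-NC and 3, 1 and 8 in treated shRNA-Ddx5 libraries. Its listed level was thus at least 5.11-fold higher in shRNA-NC cells with cytokines than in medium (against a floor of 3 fragments per library). Prl2c2 held 4406 to 10973 fragments in the treated shRNA-NC libraries, and whether some were listed under Prl2c5 was not tested.

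Pate14 (gene 235973, GRCm39 chr9:36547050-36549898, minus strand) fell furthest of the 12368 genes tested in both media. Its FPKM was 45.7, 43.6 and 50.3 in shRNA-NC libraries and 1.18, 1.07 and 0.627 in shRNA-Ddx5 libraries in medium. With cytokines it was 81.7, 54.2 and 70.7 against 0.782, 1.12 and 0.821. The groups stood far apart, with 7 to 12 fragments left in each untreated knockdown library and 8 to 11 in each treated one. The knockdown mean was 2.06% of the control mean in medium and 1.32% with cytokines, which is 48.5-fold and 76.0-fold lower. The difference in log2(FPKM + 1) was -4.61 ± 0.15 in medium and -5.18 ± 0.15 with cytokines. Of its 150-base transcript windows 75.7% also lie in Gm49367, a long noncoding locus of the same strand that spans it in the GENCODE annotation and that has no row in the table, so fragments of the pair cannot be told apart.

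Clip3 (gene 76686, GRCm39 chr7:29991120-30007792, plus strand) fell by nearly the same proportion in both media. In medium its FPKM was 20.4, 21.5 and 15.9 in shRNA-NC and 1.2, 1.04 and 1.35 in shRNA-Ddx5 libraries, and with cytokines it was 11, 9.82 and 11.6 against 0.720, 0.786 and 0.662. The 4 groups formed 4 separate levels with no overlap. The knockdown mean was 6.21% of the control mean in medium and 6.68% with cytokines. The differences in log2(FPKM + 1) were -3.20 ± 0.11 and -2.78 ± 0.11.

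Foxs1 (gene 14239, GRCm39 chr2:152773818-152775128, minus strand, a gene without introns) was the member at the highest share of its treated control in the knockdown line with cytokines. Its FPKM in medium was 20.4, 17.7 and 15 in shRNA-NC and 1.72, 1.10 and 1.82 in shRNA-Ddx5 libraries. With cytokines it was 23.0, 23.9 and 24.6 against 7.01, 6.57 and 6.10. All 4 groups were separate, and the treated knockdown libraries stayed under every control library. The knockdown mean was 8.71% of the control mean in medium and 27.5% with cytokines. The differences in log2(FPKM + 1) were -2.88 ± 0.13 and -1.72 ± 0.13, a gap of 1.16 ± 0.18, positive where that of the proliferins was negative.

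Tmem98 (gene 103743, GRCm39 chr11:80701192-80712859, plus strand) was the member with the lowest level in treated knockdown cells. Its FPKM in medium was 11.4, 12.6 and 16.1 in shRNA-NC and 0.886, 0.845 and 1.35 in shRNA-Ddx5 libraries, and with cytokines it was 6.81, 7.88 and 7.2 against 0.335, 0.610 and 0.352. The groups again formed 4 separate levels, with 21 to 35 fragments in each untreated knockdown library and 8 to 14 in each treated one. The knockdown mean was 7.67% of the control mean in medium and 5.93% with cytokines, and the log2(FPKM + 1) differences were -2.82 ± 0.14 and -2.54 ± 0.14. In GENCODE, noncoding loci on the opposite strand cover at least part of Tmem98, Foxs1 and Prl2c3. The one in the table, Gm31228 across Tmem98, held 12 fragments over the 12 libraries. Whether counting used strand is not given in the sources used here.

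**Figure D1:**
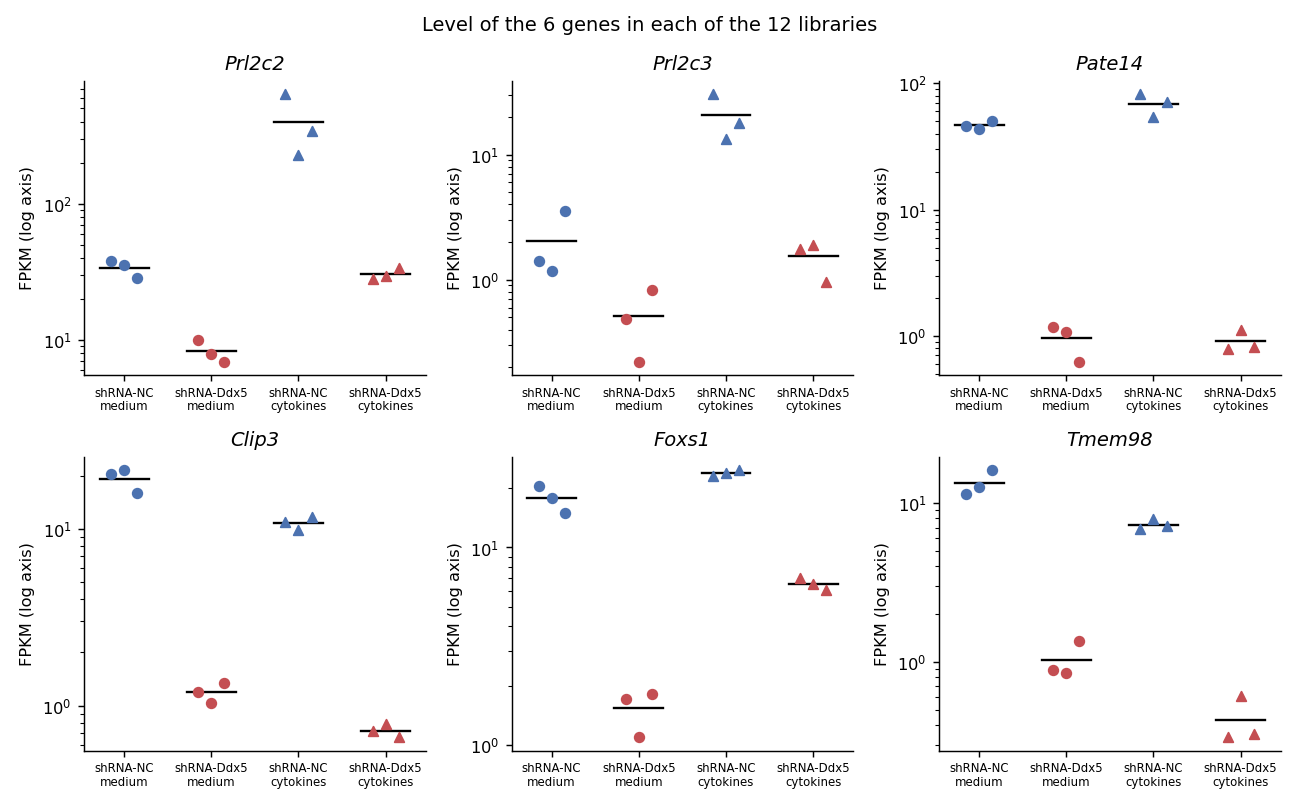
FPKM of the 6 genes in each of the 12 libraries, on a logarithmic axis. Points are libraries, and bars are group means for shRNA-NC and shRNA-Ddx5 cells in medium and with cytokines. In every panel the knockdown libraries lie below the control libraries of the same medium, and the untreated control and treated knockdown libraries overlap for Prl2c2 and Prl2c3 alone.

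All 6 genes had every knockdown library below every control library in both media. The rule chose them for this fall, so nothing is read from the count. Over all genes tested, 24.8% were separated in this direction in medium and 29.9% with cytokines, and 21.7% and 22.1% were called lower by limma. Of the calls in medium 53.8% were higher, and 42.5% when libraries were scaled to their sums of fragments. Ranked by the fall in log2(FPKM + 1) in medium, Pate14 was the 1st, Clip3 the 2nd, Foxs1 the 3rd and Tmem98 the 4th, followed by Col2a1, the type II collagen of cartilage and no member, at -2.80, while Prl2c2 was at rank 21 and Prl2c3 at rank 442. With cytokines Pate14 was at rank 1, Prl2c2 at 4 and Prl2c3 at 5, Clip3 at 7, Tmem98 at 9 and Foxs1 at 49. The growth-factor-induced genes Egr1 (-4.28) and Dusp5 (-3.95) at ranks 2 and 3 and Gprc5a (-2.90) at rank 6 fell as far without being members. The set thus holds 4 of the 5 largest falls in medium and 3 of the 5 largest with cytokines.

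**Figure D2:**
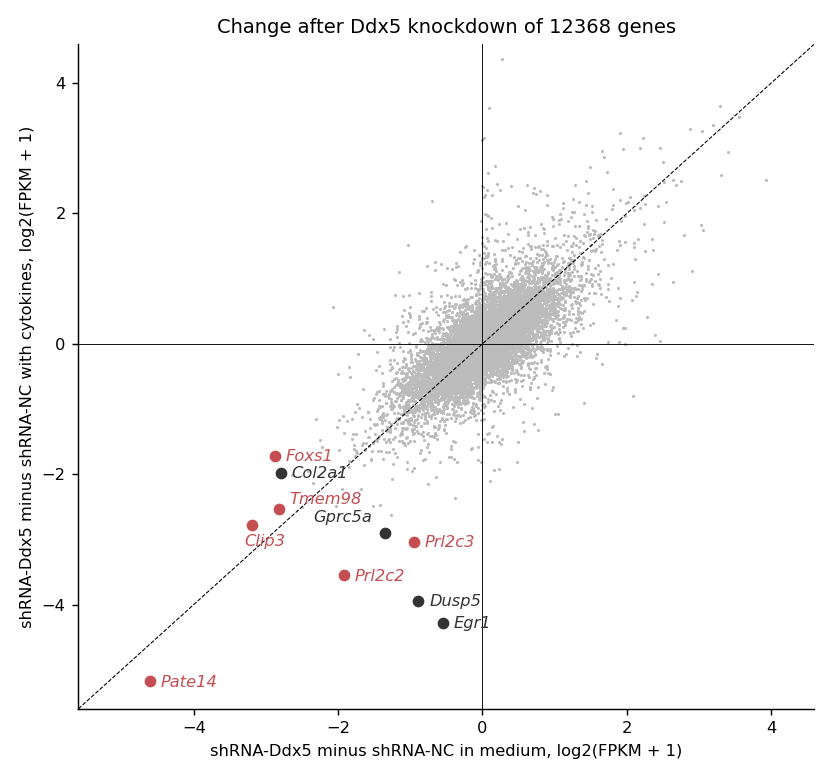
Difference in log2(FPKM + 1) between shRNA-Ddx5 and shRNA-NC cells for the 12368 genes tested, in medium (horizontal) and with cytokines (vertical), with the 6 genes in red and Col2a1, Egr1, Dusp5 and Gprc5a, which are no members, in black. Pate14 lies at the far end of both axes (-4.61 and -5.18), the proliferins lie below the line of equal change and Foxs1 above it. The axes share no libraries, but both compare the same pair of lines, and the 6 genes were picked from falls on either axis.

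The averaged response to cytokines was not itself used to choose the genes and was tested as a contrast separate from the knockdown falls. A fall with cytokines can be large only where the treated control level is high, and a fall in medium only where the untreated one is. The choice was thus not fully independent of this response. This bears on Prl2c2 and Prl2c3, at ranks 21 and 442 of the falls in medium and 4 and 5 with cytokines. It also bears on Clip3, Foxs1 and Tmem98, at ranks 2, 3 and 4 in medium and 7, 49 and 9 with cytokines. The cytokine changes and p-values of all 6 genes are given as a description and not as independent evidence. Averaged over both lines, 3 of the 6 genes rose, 2 fell and 1 did not pass the test (limma with Benjamini-Hochberg adjustment over all 12368 genes), where 23.5% of all genes tested rose and 20.8% fell. Of all genes called, 52.9% were higher under the authors' scaling, 41.6% when libraries were scaled to their sums of fragments and 40.5% with quantile normalization. The calls of the 6 genes held under each of these scalings. Over all genes tested, 23.7% in shRNA-NC and 23.3% in shRNA-Ddx5 cells had every treated library above every untreated one, and 22.0% and 24.0% had every one below.

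The proliferins rose most. Prl2c2 rose by 2.59 ± 0.20 in log2(FPKM + 1) (adjusted p = 1.6e-06 by limma) and Prl2c3 by 1.79 ± 0.23 (adjusted p = 8e-05), in both cases with every treated library above every untreated library of its line. In FPKM, Prl2c2 went up 11.8-fold in shRNA-NC and 3.69-fold in shRNA-Ddx5 cells, and Prl2c3 10.1-fold and 2.98-fold. On the fitted scale the rise was 3.40 ± 0.29 in shRNA-NC and 1.77 ± 0.29 in shRNA-Ddx5 cells for Prl2c2, and 2.83 ± 0.32 and 0.74 ± 0.32 for Prl2c3. The difference between the lines is the same quantity as the gap between the knockdown effects and was not tested.

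Foxs1 rose by 1.00 ± 0.09 (adjusted p = 5.1e-06 by limma), with the larger part in the knockdown line. Its FPKM was 1.35-fold higher with cytokines in shRNA-NC and 4.25-fold higher in shRNA-Ddx5 cells, and the treated libraries of each line lay above the untreated ones. On the fitted scale these were 0.42 ± 0.13 and 1.58 ± 0.13.

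Clip3 and Tmem98 fell with cytokines in both lines. Clip3 fell by 0.56 ± 0.08 (adjusted p = 0.00019 by limma) and Tmem98 by 0.64 ± 0.10 (adjusted p = 0.00031), with all treated libraries below all untreated libraries of the same line. The FPKM in medium was 1.78 times the treated level for Clip3 in shRNA-NC and 1.65 times in shRNA-Ddx5 cells, and 1.83 and 2.37 times for Tmem98. The fitted change was -0.77 ± 0.11 and -0.35 ± 0.11 for Clip3, and -0.78 ± 0.14 and -0.50 ± 0.14 for Tmem98.

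Pate14 differed by 0.25 ± 0.11 with cytokines, which did not pass the test (adjusted p = 0.078 by limma). In shRNA-NC cells the treated libraries all lay above the untreated ones, at 1.48 times the FPKM, while in shRNA-Ddx5 cells the groups overlapped at 0.944 times. The fitted changes were 0.54 ± 0.15 and -0.03 ± 0.15. Without shRNA-NC replicate 2 with cytokines the averaged change was 0.33 and passed (adjusted p = 0.017), whereas over the other alternatives the adjusted p ran from 0.053 to 0.50.

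**Figure D3:**
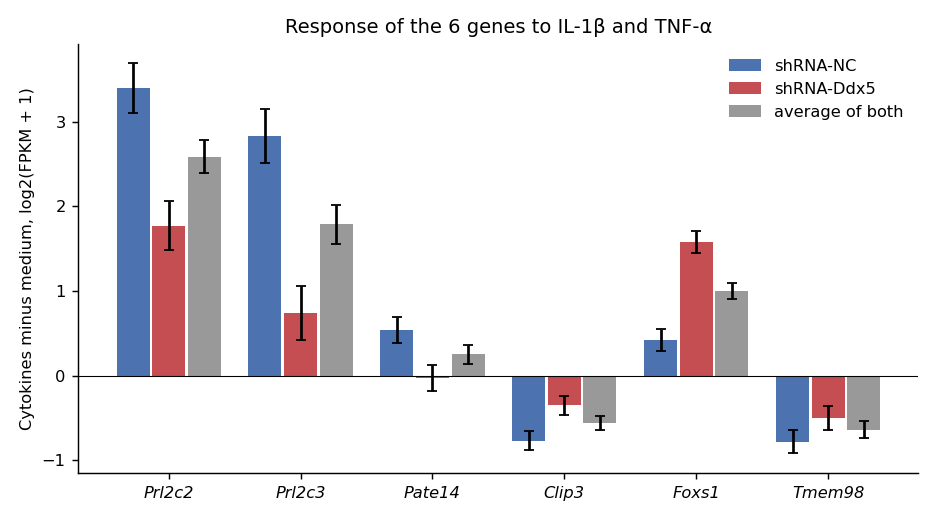
Cytokine effect on the 6 genes, as the difference in log2(FPKM + 1) between treated and untreated cells, in shRNA-NC (blue) and shRNA-Ddx5 (red) cells. Coloured bars are the fitted differences in each line, grey bars their average, and error bars are ± 1 SE. Prl2c2 (3.40 against 1.77) and Prl2c3 (2.83 against 0.74) rose more in the control line, Foxs1 more in the knockdown line (0.42 against 1.58), and Clip3 and Tmem98 lie below 0 in both.

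The order of the 4 groups gave 3 patterns. The treated shRNA-NC cells were highest for the proliferins, Pate14 and Foxs1, and the untreated shRNA-NC cells were highest for Clip3 and Tmem98. In the proliferins the 2 groups in the middle, untreated shRNA-NC (33.9 ± 4.89 FPKM of Prl2c2) and treated shRNA-Ddx5 (30.3 ± 2.79), did not separate, and in Pate14 the 2 knockdown groups (0.960 ± 0.293 and 0.907 ± 0.184) did not separate. All other neighbours in the order were apart in every library. Over the 12 libraries Clip3 and Tmem98 had the most similar pattern of any pair of members (Pearson's r = 0.988 on log2(FPKM + 1)), followed by Pate14 and Clip3 (0.959) and the proliferins (0.956). The lowest r of a pair was 0.504. These points share their 4 groups, so the values describe the group pattern only.

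Among all genes tested, the 5 with the pattern most like each member were found by the same measure over the 12 libraries. For Prl2c2 they were led by Tgif1 (r = 0.993), a homeodomain repressor, and Vegfa (0.992), the vascular endothelial growth factor, followed by Aatf, Snhg17 and Polr3g. For Prl2c3 they were Katna1 (0.991), a microtubule-severing subunit, Usp42, C9orf72, Blcap and Spata5, and for Pate14 Cep19 (0.992), a centrosomal protein, Erc2, Elovl5, an unnamed locus and Carhsp1. Clip3 was closest to Acvr2b (0.994), an activin receptor, and then to Bhlhb9, Ap3d1, Tspan33 and Tmem98. Foxs1 was closest to Zbtb43 (0.986), Sidt2, Gabarapl1, Chtop and Grina. Tmem98 was closest to Bhlhb9 (0.988) and Clip3, and then to Pkia, Rnd2 and Smad4, the common SMAD.

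The relatives of the members were taken from lists of families, and a list's count is read beside that over all genes. Of 24 other prolactin-family genes listed, 11 had any fragment, and their summed fragments were 5 to 6 per library in shRNA-NC, 2 to 9 in shRNA-Ddx5, 29 to 63 in treated shRNA-NC and 6 to 14 in treated shRNA-Ddx5 cells. Prl2c1 and the prolactin receptor Prlr were listed at 0 in all 12 libraries. Igf2r, the mannose 6-phosphate receptor that proliferin binds, was at 37.2 ± 1.80 and 26.4 ± 0.418 FPKM in medium and 31.5 ± 3.05 and 18.3 ± 0.934 with cytokines in shRNA-NC and shRNA-Ddx5 cells. It fell with the knockdown by 0.48 in medium (adjusted p = 0.00056 by limma) and by 0.75 with cytokines (adjusted p = 2.6e-05).

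Pate8, a close neighbour of Pate14 with a transcript 59.3% identical, was lost with it. Its FPKM was 3.38, 2.84 and 2.42 in untreated (23, 19 and 12 fragments) and 5.26, 3.23 and 2.90 in treated shRNA-NC libraries (29, 20 and 18 fragments), and 0 in all 6 knockdown libraries. Against a floor of 3 fragments per library it was at least 5.21-fold lower in medium and at least 6.58-fold lower with cytokines. Of the 57 genes of the Ly-6 and Pate family in the table, 8 besides Pate14 passed the filter. The knockdown raised 2 and lowered 2 of the 8 in medium and raised 3 and lowered 2 with cytokines, where 25.3% of all genes tested rose and 21.7% fell in medium and 23.5% and 22.1% with cytokines. Pate8 passed the filter through the shRNA-NC libraries alone and Ly6a and Ly6c1 through the shRNA-Ddx5 libraries alone, so nothing is read from the counts. Ly6a (Sca-1), a surface marker of progenitor cells, was at 0.147 ± 0.129 FPKM in shRNA-NC and 4.40 ± 0.555 in shRNA-Ddx5 cells in medium, and at 0.224 ± 0.197 and 4.88 ± 0.785 with cytokines. Ly6c1, a marker of endothelial cells and leukocytes, was higher in the knockdown line by 1.43 and 0.97 in log2(FPKM + 1).

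Of 22 other CAP-Gly and microtubule plus-end genes, 7 rose and 7 fell with the knockdown in each medium, and the medians were -0.08 and 0.04, where 25.3% of all genes tested rose and 21.7% fell in medium and 23.5% rose and 22.1% fell with cytokines. Clip1 (CLIP-170), a tip-tracking protein of microtubules, rose by 0.32 in medium and 0.39 with cytokines (adjusted p = 0.013 and 0.0044 by limma), but lost the call in medium (adjusted p = 0.085) when libraries were scaled to their sums of fragments. Clip2 fell by 0.34 and 0.70 (adjusted p = 0.032 and 0.00055), and the call in medium was lost in 6 alternatives. Clip4 differed by -0.09 and -0.02 (adjusted p = 0.44 and 0.88). Mapre3 (EB3), which recruits CLIP proteins to growing microtubule ends, fell by 0.82 and 0.59, and its relative Mapre1 (EB1) rose by 0.70 and 0.43. Akt1, the kinase that Clip3 binds, rose from 63.1 ± 6.18 to 107 ± 13.3 FPKM in medium (log2 difference 0.75, adjusted p = 0.00027) and by 0.46 with cytokines (adjusted p = 0.0054).

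Of 19 rows beside Foxs1 in the forkhead list, 1 of them a noncoding RNA named after a forkhead gene, 5 rose and 10 fell with the knockdown in medium, and 4 rose and 10 fell with cytokines. Of all genes tested 25.3% rose and 21.7% fell in medium, and 23.5% rose and 22.1% fell with cytokines. The medians of the list were -0.40 and -0.39, against 0.03 and 0.01 over all genes. Foxf1, a factor of lung and gut mesenchyme, rose most, in medium from 3.39 ± 0.807 to 12.7 ± 0.951 FPKM and with cytokines from 6.43 ± 1.83 to 21.1 ± 0.803 (differences 1.66 and 1.6, adjusted p = 2.1e-05 and 2.5e-05 by limma). Foxo1, an Akt target, fell by 0.49 and 0.88 (adjusted p = 0.0023 and 4.7e-05), Foxd1 by 0.73 and 0.87 (adjusted p = 0.028 and 0.013) and Foxc2 by 0.52 and 0.90 (adjusted p = 0.038 and 0.0024). The call in medium was lost in 5 of 20 alternatives for Foxd1 and in 9 of 19 for Foxc2. Foxc2 passed the filter through shRNA-NC libraries alone, so its falls, counted in both media, follow in part from the filter. Without shRNA-NC replicate 2 with cytokines, 6 rather than 10 were lower in treated cells. Of the MYRF list Tmem98 alone passed the filter, and Myrf itself reached 0.154 FPKM at most.

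The AP-1 and early growth-response genes were listed because proliferin is known as a gene of the growth-factor response. With cytokines, averaged over the lines, 11 of 12 rose and none fell (median 1.38), where 23.5% of all genes tested rose. With the knockdown 1 rose and 4 fell in medium, and 0 rose and 8 fell with cytokines, with medians of -0.36 and -0.76 against 0.03 and 0.01 over all genes, of which 21.7% and 22.1% fell. Jun, a subunit of AP-1, fell in medium from 17.4 ± 2.06 to 5.84 ± 0.736 FPKM and with cytokines from 41.4 ± 3.81 to 14.9 ± 0.353 (differences -1.43 and -1.41, adjusted p = 2.5e-06 and 2.6e-06 by limma). Atf3, a stress-induced partner, fell by 1.01 in each medium (adjusted p = 7.5e-05 and 7.3e-05). Ier2, an immediate early gene, fell by 0.43 and 1.73 (adjusted p = 0.015 and 2.3e-06). Fos passed the filter through the treated shRNA-NC libraries alone. It is counted among the 11 rises and the 8 falls with cytokines, and its part in these counts follows in part from the filter. Whether these genes have a part in the proliferin values was not tested.

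The neighbours of the 6 genes were compared over 500 kb on each side. Of 186 genes there, 62 passed the filter, and the knockdown raised 13 and lowered 18 in medium and raised 15 and lowered 20 with cytokines, where 25.3% and 23.5% of all genes tested rose and 21.7% and 22.1% fell. Around the proliferins on chromosome 13, none of 6 tested neighbours rose and 4 fell in medium, and 5 fell with cytokines. Gpr137b, a lysosomal membrane protein 162 kb from Prl2c5, had an FPKM of 8.81, 9.77 and 11.9 in shRNA-NC and 2.16, 2.55 and 2.69 in shRNA-Ddx5 libraries in medium, and 32.3, 17.2 and 21.8 against 4.06, 4.15 and 4.14 with cytokines. It fell by 1.68 ± 0.18 in medium (adjusted p = 3.2e-05 by limma) and by 2.23 ± 0.18 with cytokines (adjusted p = 4.6e-06). Gpr137b-ps, a pseudogene of it 140 kb from Prl2c3, fell by 0.75 and 1.54 (adjusted p = 0.0033 and 2.8e-05), and 12.5% of the 150-base windows of Gpr137b also occur there. Prl2c3 and Prl2c2 lie 356 kb apart, and Prl2c2 and Prl2c5 177 kb.

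Over all genes tested, 25.3% rose and 21.7% fell with the knockdown in medium, and 23.5% and 22.1% with cytokines. Near Pate14, 1 of 5 tested neighbours rose and 3 fell in each medium, among the latter Pate8 at 53.1 kb. Near Clip3, 7 of 34 rose and 10 fell in medium, and 8 rose and 9 fell with cytokines. Among them Alkbh6, 0.386 kb from Clip3, differed by 0.23 and 0.01 and did not pass, Sdhaf1, 13.0 kb away, rose by 1.00 and 1.18, Haus5 rose by 0.89 and 1.37, and Aplp1 fell by 1.09 and 0.73. Near Foxs1, 4 of 12 rose and 1 fell in medium, and 6 rose and 3 fell with cytokines, with Dusp15, 7.79 kb from Foxs1, lower by 0.39 and 0.72 and Id1 higher by 0.71 and 0.99. Near Tmem98, 1 of 5 rose in medium, none passed with cytokines and none fell in either. Alkbh6, Dusp15 and Id1 were chosen after their values were seen. Aplp1, Pate8 and Zfp940, a fall near Clip3, passed the filter through shRNA-NC libraries alone, and Dusp15 through treated shRNA-NC libraries alone. Near the proliferins, Gpr137b-ps and an unnamed neighbour reached 1 FPKM in all libraries of a group only in shRNA-NC cells. Near Foxs1, 2500004C02Rik, a rise, passed through untreated shRNA-Ddx5 libraries alone. These falls and this rise thus follow in part from the filter, and nothing is read from the neighbour counts.

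**Figure D4:**
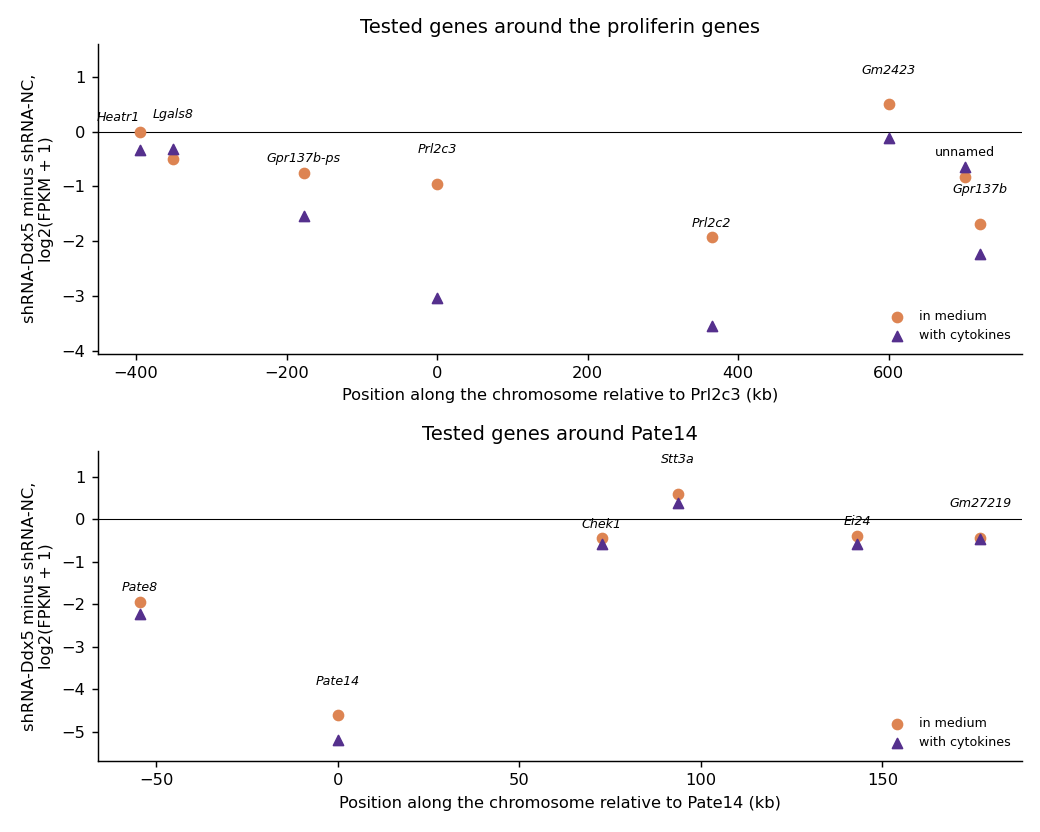
Knockdown effect in medium and with cytokines, as the difference in log2(FPKM + 1), for the tested genes within 500 kb of the proliferins (top) and of Pate14 (bottom), plotted by position relative to Prl2c3 or Pate14 in kb. Circles are the effect in medium and triangles that with cytokines. Gpr137b (-1.68 and -2.23) and Pate8 (-1.95 and -2.23) fell beside the proliferins and Pate14.

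Markers of the cell types for which the members are known were counted in the same libraries. Of 11 trophoblast markers 7 were listed at 0 in all libraries and the highest value of any was 0.0716 FPKM, in Eomes. Of 9 pericyte markers, 5 stayed under 1 FPKM in every library, Kcnj8 was at 0 and the summed level was 36.0 to 43.3 FPKM in shRNA-NC, 40.4 to 45.0 in shRNA-Ddx5, 12.6 to 25.2 in treated shRNA-NC and 41.4 to 45.9 in treated shRNA-Ddx5 libraries, mostly Pdgfrb. Of 10 neural and oligodendrocyte markers, 8 stayed under 1 FPKM, Sox10, Mog, Mag and Stmn2 were at 0 and the sum was 4.90 to 6.21, 8.49 to 9.35, 7.47 to 9.78 and 5.78 to 7.02 FPKM in the same order. The summed chondrocyte markers were 40.1 to 45.3 FPKM in shRNA-NC and 31.6 to 34.3 in shRNA-Ddx5 cells in medium, and 13.1 to 18.4 and 10.6 to 10.7 with cytokines. Sox9 was the largest part in every group. Col2a1 was lower in the knockdown line (12.4 ± 3.05 against 0.899 ± 0.0511 FPKM in medium) and Col11a1, another cartilage collagen, was higher (0.897 ± 0.0714 against 4.78 ± 0.640). Of 5 macrophage and 4 endothelial markers, Ptprc and Cdh5 were at 0, and the sums reached 2.15 and 0.151 FPKM at most. The part of these markers in the members' values was not tested.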

How the data were processed

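RNA of 12 ATDC5 libraries (poly(A)-selected, 6 h, 3 per group) was analysed, with groups and replicate numbers taken from the labels. The authors deposited FPKM. The submitters' processing notes name HISAT2 2.0.5, featureCounts 1.5.0-p3, DESeq2 1.20.0 and mm10, while the deposited coordinates are those of GRCm39. Handling of multi-mapped reads and strand is not given in the sources used here. In each library all values (100%, within 0.001), once multiplied by gene length, were integer multiples of a common unit, which gave the fragments, 14119199 to 19276520 per library. The denominators were 0.957 to 1.08 times these sums, so the values already held a scaling between libraries. The floors (3 fragments) cover counting error only, whereas SD and SE describe the spread between libraries.

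log2(FPKM + 1) was fitted with limma 3.58.1 in R 4.3.3 (lmFit, contrasts.fit, eBayes with trend, 4 group means, no covariate) for the 12368 genes whose FPKM was 1 or more in 3 or more libraries. Contrasts covered the knockdown in medium and with cytokines, their difference and the cytokine effect averaged over both lines, adjusted by Benjamini-Hochberg and called under 0.05. The same code was tested on simulated data. With 3 libraries per group, p-values measure the spread between cultures of 1 pair of lines. Transcripts and loci were read from GENCODE M39 (GRCm39) and promoters from RefSeq (GRCm38.p6), without converting coordinates, and identities were computed with Biopython 1.88 in Python 3.11.15. The 6 genes, the family and marker lists and the tests were chosen with earlier results of these data known. Named genes were the 6 members, Ddx5, the 5 genes most like each member, paralogs, and in each list and neighbourhood up to 5 of the largest changes past the threshold in both media. Alternatives were other filters, pseudocounts and scalings, eBayes without trend, a replicate block, other windows, leaving out each library and, added after seeing the data, voom on the recovered fragments.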

Additional observations from a re-analysis of the deposited data

Results flagged for a closer look

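For 8 tested genes of the family and early-response lists the effect of the knockdown differed between media, by a test of the difference itself (limma, Benjamini-Hochberg adjustment over all genes tested). Besides the members, the prolactin, Ly-6, CAP-Gly, forkhead and AP-1 lists held 1, 8, 22, 19 and 12 tested genes. The share of all genes with such a difference was not counted, so nothing is read from the number. Values are the effect with cytokines minus that in medium, in log2(FPKM + 1). It was negative for 4 genes. For Egr1, an immediate early transcription factor, it was -3.74 (adjusted p = 0.00011), with 2.69 ± 1.3 FPKM in shRNA-NC and 1.40 ± 0.0892 in shRNA-Ddx5 cells in medium, and 59.1 ± 8.46 and 2.09 ± 0.432 with cytokines. For Ier2 it was -1.3 (adjusted p = 0.0013), for the forkhead gene Foxq1 -1.22 (adjusted p = 0.0061) and for Myc, the growth regulator, -0.60 (adjusted p = 0.013).

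It was positive for the other 4. For the forkhead gene Foxc1 it was 1.03 (adjusted p = 0.0021), for Foxn3 0.78 (adjusted p = 0.0086), for Cyld, a deubiquitinase with CAP-Gly domains, 0.72 (adjusted p = 0.0035) and for Foxo3 0.57 (adjusted p = 0.0047). Foxc1 and Foxq1 passed in both media with opposite signs. Foxc1 differed by -0.54 in medium (51.6 ± 4.58 to 35.1 ± 0.148 FPKM) and by 0.48 with cytokines (18.8 ± 3.08 to 26.5 ± 0.363), and Foxq1 by 0.74 in medium (4.37 ± 0.682 to 7.93 ± 0.753 FPKM) and by -0.48 with cytokines (1.77 ± 0.468 to 0.980 ± 0.332). The call of Foxq1 with cytokines was lost in 5 of 20 alternatives, and neither call of Foxc1 was lost in any of its 20. Foxc1, Foxn3, Foxo3, Cyld, Myc and Egr1 were named here for this difference, after it was seen.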

How the results depend on the processing

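The test with edgeR, DESeq2 and TMM scaling was not run, since the deposited values are FPKM. The 3 rises and 2 falls of the members with cytokines kept their direction and their call under every alternative, and a 4th rise, Pate14, was added without shRNA-NC replicate 2 with cytokines. The falls of the members after the knockdown kept their sign in every alternative, but their size depends on the scale: Pate14 in medium was -5.50 with a pseudocount of 0.1 and -5.58 with voom, Tmem98 with cytokines -3.83 and -4.06, and Prl2c3 in medium -1.77 and -1.86. Calls over all genes with the knockdown in medium were 3131 higher and 2686 lower, and 2480 and 3353 when scaled to the sums of fragments. The knockdown effect on Tpx2, 36.6 kb from Foxs1 and named for this change, reversed from 0.20 to -0.03 in medium with quantile normalization. The CAP-Gly list, with 2 genes higher with cytokines, had 1 without trend, without a filter, with a pseudocount of 0.1 and with the block, and 0 with either other scaling, and its 7 genes higher with the knockdown in medium became 4 with the sums. In the Ly-6 list, 2 higher in medium became 1 with a filter on 6 libraries, 2 lower in medium became 1 with the block, and 2 lower with the knockdown in cytokines and 2 higher with cytokines each became 4 without a filter. The 1 AP-1 gene higher in medium became 0 without a filter, with the block and with the sums, and the 5 forkhead genes higher with cytokines became 3 with either other scaling. Within 200 kb, 7 neighbours were higher and 10 lower in medium, and 7 and 9 with cytokines. Leaving out 1 library gave 0 to 1 AP-1 genes higher with the knockdown in either medium, 1 to 3 CAP-Gly genes higher with cytokines, 1 to 2 Ly-6 genes lower in medium and 6 to 11 forkhead genes lower in cytokines. Between the lines, deviations of same-numbered replicates correlated at 0.0425 to 0.448 in medium (mean 0.268, against -0.143 for other numbers). With cytokines they correlated at -0.0855 to 0.121 (mean 0.00508, against -0.00231). Between medium and cytokines they correlated at -0.368 to 0.123 in shRNA-NC and -0.292 to 0.043 in shRNA-Ddx5 cells. Same numbers were thus clearly more alike than others between the lines in medium alone, and the main fit held no pairing. With a replicate block the calls went from 5817 to 5452 in medium, 5645 to 5232 with cytokines and 5479 to 5019 for the cytokine effect, and no member's call changed. Depth limits Prl2c5, Pate8 and, in the knockdown line, Prl2c3, Pate14 and Tmem98, with 4 to 30, 7 to 12 and 8 to 35 fragments per library.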

Other observations

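The other members of the Pate and prolactin families, most of them under the filter, were counted in fragments. Apart from Pate14 and Pate8, 12 Pate genes held 23 to 30 fragments per library in shRNA-NC, 0 to 6 in shRNA-Ddx5, 11 to 27 in treated shRNA-NC and 1 to 3 in treated shRNA-Ddx5 cells. Most came from Pate9, with 23, 13 and 17 fragments in untreated and 11, 6 and 19 in treated shRNA-NC libraries and 0 in all 6 knockdown libraries. It was thus at least 5.28-fold lower in medium and at least 3.48-fold lower with cytokines, against a floor of 3 fragments per library. Among prolactin-family genes, Prl7a1 had 19, 7 and 19 fragments in treated shRNA-NC libraries against 0, 2 and 3 in treated shRNA-Ddx5 libraries, and Prl7a2 20, 8 and 12 against 2, 1 and 2. In medium neither exceeded 5 fragments in any library. Pate9, Prl7a1 and Prl7a2 were named after their values were seen, and no test was run on them.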
